A study of Mus musculus with 6 samples.

Results

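The carbonic anhydrases described here are the 10 mouse genes Car2, Car3, Car4, Car5b, Car8, Car10, Car11, Car12, Car13 and Car14, out of 18193 genes with at least 1 probe set to themselves. They were read by 22 of the 45037 probe sets that are not controls. A probe set was taken where the platform annotation gave it 1 of these symbols and no other. Islets, the small groups of endocrine cells scattered through the pancreas, were taken by collagenase digestion from pregnant mice at 12.5 days post coitum (dpc; 3 arrays) and from non-pregnant mice (0 dpc; 3 arrays). The labels give no strain, age or genotype and do not state whether different mice stand behind the 3 arrays of each group. The errors, and the p-values given for other genes, may therefore reflect technical spread alone. The genes were chosen by their MAS5 signals in this comparison together with their family, with Car8 set against the catalytic members. Their differences are therefore given as descriptions, with errors and no p-values. Statements that these genes passed or did not pass a threshold are descriptions too.

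Carbonic anhydrases catalyse the reversible hydration of carbon dioxide to bicarbonate and a proton, and the active enzymes hold a zinc ion in the catalytic site through histidine residues. Car8, Car10 and Car11 are related proteins that lack histidines needed to hold the zinc and have no such activity. Car8 protein is best known from cerebellar Purkinje cells, where it binds the type 1 inositol trisphosphate (IP3) receptor, a calcium channel of the endoplasmic reticulum, and lowers its affinity for IP3. In the pancreas, carbonic anhydrase activity is known best from duct cells, which secrete bicarbonate.

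The values are MAS5 signals, which are background-corrected and scaled intensities on a linear scale. Every array had a 2% trimmed mean of 500.003. The control probe sets for the bacterial TrpnX transcript, used here as a measure of signal without a target, ran from 1.1 to 32.3. The ratio of 3' to 5' beta actin signal, a measure of RNA integrity, was 1.63 to 1.66 on pregnant and 1.56 to 1.63 on non-pregnant arrays, without overlap before rounding, and its part in the results was not tested. The same ratio for Gapdh overlapped, at 0.69 to 0.73 on pregnant and 0.67 to 0.71 on non-pregnant arrays. Beta cell markers were bright in both groups, as in Iapp, the islet amyloid gene, at 49983 to 51107 on pregnant and 47044 to 51191 on non-pregnant arrays. Log2 differences are pregnant minus non-pregnant on the log2(signal + 16) scale, where 16 is a pseudocount that understates the change of dim probe sets, and are followed by limma's standard error (SE).

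Car8 was high in islets of pregnant mice in each of its 3 probe sets. The brightest, 1427482_a_at, had signals of 6276, 6139 and 6155 on pregnant arrays 1 to 3, against 1536, 1806 and 1929 on non-pregnant arrays 1 to 3. The pregnant arrays lay close together and far above every non-pregnant array. The mean was 6190 ± 75.0 in pregnant and 1757 ± 201.4 in non-pregnant islets (SD, n = 3 each), 3.52 times as high, for a log2 difference of 1.81 ± 0.08. By log2 difference Car8 was 24th among the 12914 genes with a tested probe set.

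The other Car8 probe sets were dimmer and ran the same way. Probe set 1457904_at had 305.8, 295.2 and 366.5 on pregnant arrays, against 90.9, 99.5 and 120.4 on non-pregnant arrays, with a log2 difference of 1.50 ± 0.18. Probe set 1424958_at had 136.3, 127.8 and 165.8 on pregnant arrays, against 24.4, 8.1 and 81.9 on non-pregnant arrays. The groups did not overlap in either, but 2 of the 3 non-pregnant signals of 1424958_at lay within the range of the TrpnX controls. Its log2 difference of 1.79 ± 0.44 therefore rests on signals within that range, and it was 1.08 with a pseudocount of 64 and 2.42 with a pseudocount of 1. The 3 probe sets thus spanned log2 differences of 1.50 to 1.81, and the SE of the dimmest was wider than that span.

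**Figure D1:**
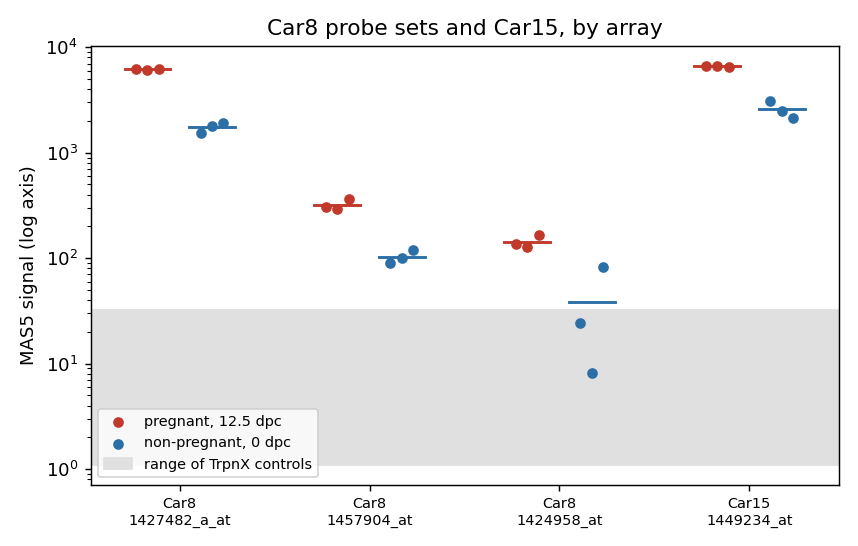
MAS5 signal (log axis) of the 3 Car8 probe sets and of Car15 on each array, with pregnant arrays in red and non-pregnant arrays in blue, bars at the group means and the range of the TrpnX controls in grey. In all 4 probe sets every pregnant array lies above every non-pregnant array, and only Car8 1424958_at has signals, on 2 non-pregnant arrays, inside the grey range.

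The other acatalytic members had lower mean signals in pregnant islets, in probe sets that did not pass the test or were too dim for it. Car10, a secreted protein that binds neurexins in brain, had signals of 2209, 1736 and 1919 on pregnant arrays, against 2312, 2704 and 2221 on non-pregnant arrays (1424547_at). All 3 pregnant signals were below the non-pregnant ones, the nearest pair being 2209 and 2221. The log2 difference was -0.30 ± 0.10, which did not pass the adjusted threshold of 0.05 in limma. The dimmer Car10 probe set, 1431288_at, had 74.8, 78.8 and 100.8 on pregnant arrays, against 104.0, 131.7 and 125.4 on non-pregnant arrays. Again no pregnant array reached a non-pregnant one, and the log2 difference was -0.44 ± 0.23. Car11, the third protein without activity, had 12.6, 38.5 and 7.6 on pregnant arrays, against 48.7, 57.9 and 78.1 on non-pregnant arrays. Those groups did not overlap either, but the probe set was too dim to be tested and 2 pregnant signals were within the TrpnX range.

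Among the catalytic members on the plasma membrane, tested probe sets of Car4 and Car12 had small differences, and that of Car14, not tested, read within the range of the TrpnX controls in pregnancy. Car4, which is held to the outer face of the plasma membrane by a lipid anchor, had 147.1, 120.5 and 128.6 on pregnant arrays, against 178.3, 173.4 and 161.1 on non-pregnant arrays (1448949_at). The groups did not overlap and the log2 difference was -0.34 ± 0.18. Its second probe set, 1418094_s_at, had 138.1, 114.9 and 113.9 on pregnant arrays, against 96.3, 166.8 and 117.7 on non-pregnant arrays, which overlap (log2 difference -0.02 ± 0.23), so the pattern of the first was not shared. Car12, a transmembrane enzyme with its active site outside the cell, had 49.6, 59.4 and 51.3 on pregnant arrays, against 59.4, 86.1 and 64.5 on non-pregnant arrays (1428485_at, log2 difference -0.30 ± 0.29). The highest pregnant and the lowest non-pregnant signal of Car12 were equal. The other 2 Car12 probe sets had signals of 38.4 or less on every array.

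Car14, also a transmembrane enzyme, had signals of 7.1, 25.3 and 9.2 on pregnant arrays, against 61.0, 45.2 and 84.8 on non-pregnant arrays. All 3 pregnant signals lay within the TrpnX range and all 3 non-pregnant signals above it. The mean over all arrays was too low for the probe set to be tested, and no fold is given against signals within the range of these controls.

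The cytosolic enzymes were dim and overlapped between the groups. Car2, the fast enzyme of red cells and duct cells, had 33.2, 59.2 and 71.7 on pregnant arrays, against 69.1, 43.9 and 56.5 on non-pregnant arrays, with a log2 difference of -0.06 ± 0.34. Car3, a slow enzyme abundant in fat and muscle, had 100.7, 64.7 and 59.5 on pregnant arrays, against 9.9, 118.1 and 128.6 on non-pregnant arrays in its brightest probe set (1460256_at, log2 difference 0.17 ± 0.55). Its sign rests on single arrays, since the log2 difference was -0.64 without non-pregnant replicate 1, the low one, and -0.03 without pregnant replicate 1. A second Car3 probe set, 1449434_at, read 465.1 on non-pregnant replicate 2 and between 9.0 and 77.1 on the other 5 arrays. That high value was not shared by the other 3 Car3 probe sets, which read 118.1, 25.7 and 4.9 on the same array.

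Car13, the remaining cytosolic enzyme, had 33.7, 41.1 and 45.1 on pregnant arrays, against 24.6, 43.2 and 29.0 on non-pregnant arrays in its brightest probe set, and none of its 3 probe sets was bright enough to be tested. In the order of protein-coding genes of the RefSeq mouse annotation, Car13, Car1, Car3 and Car2 are direct neighbours. None of these 4 genes had a probe set called, and all those of Car13 and Car1 were too dim to be tested.

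Car5b, a mitochondrial enzyme, was the 1 catalytic member with its brightest probe set above every non-pregnant signal on every pregnant array, which held for 1 of its 2 probe sets. That probe set, 1447928_at, had 61.1, 77.9 and 75.1 on pregnant arrays, against 27.6, 6.4 and 20.4 on non-pregnant arrays. The non-pregnant signals were all within the TrpnX range and the pregnant signals all above it. The second probe set, 1419705_at, had 7.8, 83.2 and 13.6 on pregnant arrays, against 13.3, 6.9 and 24.2 on non-pregnant arrays, so it was high on 1 pregnant array alone. Neither was tested.

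**Figure D2:**
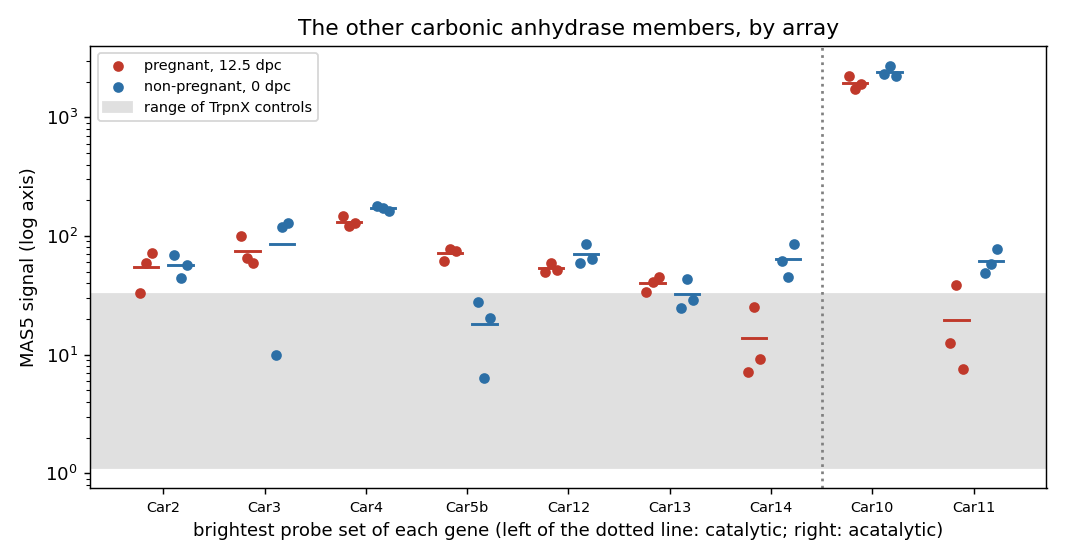
MAS5 signal (log axis) of the brightest probe set of each member other than Car8 on every array, with pregnant arrays in red, non-pregnant arrays in blue, bars at the group means and the range of the TrpnX controls in grey. In Car4, Car10, Car11 and Car14 every pregnant array lies below every non-pregnant array, in Car5b above, and for Car5b and Car14 1 of the groups lies wholly inside the grey range.

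Counted together, 10 of the 22 probe sets, from 6 of the 10 genes, were bright enough to be tested. Of these 10, limma called 3 higher in pregnancy, all of Car8, and 0 lower. One of the 3, 1424958_at, averaged 38.1 in non-pregnant islets, below the filter, a mean log2 value that matches a signal of about 50.5. It was tested through its pregnant signals, so its count as a call carries no weight. With no filter it was not called and 2 Car8 probe sets were. Among all probe sets tested, 4.79% were called higher and 4.78% lower. At an unadjusted p under 0.05 in limma the members had 3 higher and 1 lower, the brighter Car10 probe set. Of the 27022 probe sets tested, 6190 were under it in either direction. Over all those tested, the groups did not overlap in 11.6% with pregnancy above and in 16.1% with pregnancy below. Among the members this held for 3 probe sets above, those of Car8, and 3 below, both of Car10 and 1 of Car4. Since this comparison was known when the genes were chosen, these shares are set side by side and nothing is read from them. Of the 12 untested probe sets, 3 did not overlap between the groups. The shares above cover tested probe sets alone, so nothing is read from that count. Those 12 could not have been called, so the count of calls does not cover Car5b, Car11, Car13 or Car14 at all. With no filter on low signals all 22 were tested and 0 of these 12 were called, where 2.25% of all probe sets were called higher and 1.95% lower.

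**Figure D3:**
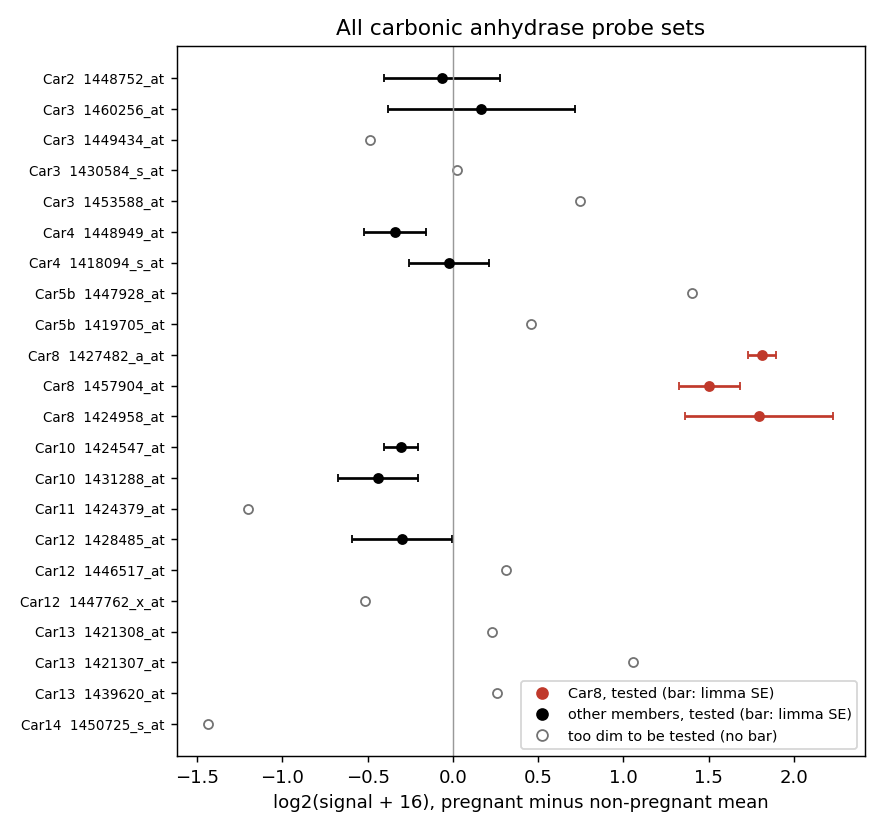
Log2 difference (pregnant minus non-pregnant, log2(signal + 16)) of all 22 probe sets, with bars for limma's SE where a probe set was tested and open circles for those too dim to be tested. The 3 Car8 probe sets lie between 1.50 and 1.81, and the other 7 tested probe sets between -0.44 and 0.17.

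Car8 was then set against the 4 catalytic genes with a tested probe set, Car2, Car3, Car4 and Car12. Their median log2 difference was -0.18, beside -0.04 over all 12914 genes tested. None of their 5 tested probe sets passed limma's threshold, and 0 did at an unadjusted p under 0.05 in either direction. Of all 27022 probe sets tested, 6190 were under that p. The 5 catalytic probe sets were dim, with SEs of 0.18 to 0.55, and the genes were chosen with this comparison known. Not passing therefore does not show that these genes were unchanged. The log2 difference of Car8 exceeded the median of these 4 genes by 1.99, and by 1.88 when the 3 untested catalytic genes were included. Mean signals of the 4 genes' brightest probe sets were 53.4 to 170.9 across both groups, against 6190 and 1757 for Car8. Of the 3 untested genes, Car5b was higher and Car14 lower in pregnant islets, each with 1 group wholly within the TrpnX range. Within each array, with every probe set centred on its own mean, Car8 was above the catalytic median by 1.05, 0.94 and 1.07 on pregnant arrays 1 to 3. On non-pregnant arrays 1 to 3 the same measure was -1.19, -1.16 and -0.85. The measure was thus positive on every pregnant and negative on every non-pregnant array, and the spread within a group was small beside the distance between the groups. With every probe set centred on its own mean, these values restate the difference of 1.99 array by array and are no further support. No test was made of this contrast, for which the genes had been chosen.

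**Figure D4:**
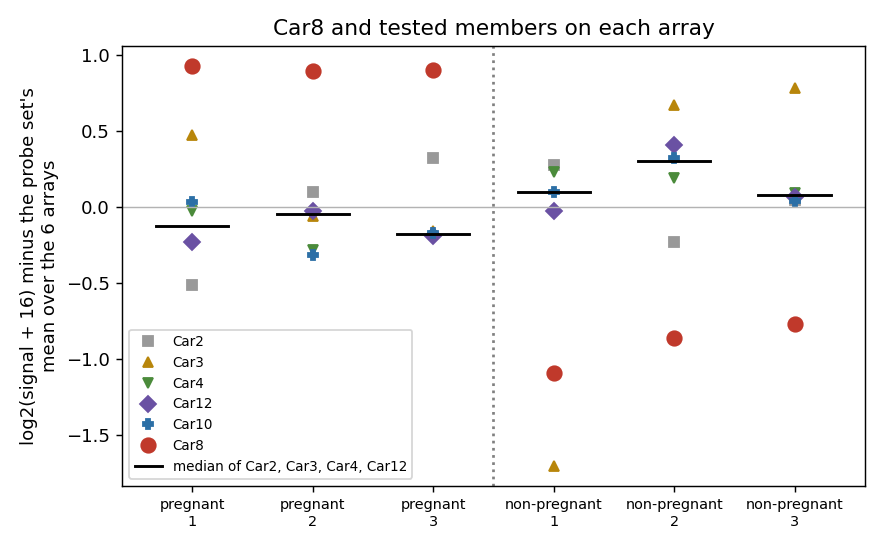
Log2(signal + 16) of Car8 and of the tested members Car2, Car3, Car4, Car12 and Car10 on each array, centred on each probe set's mean over the 6 arrays, with black bars for the median of the 4 catalytic genes. Car8 lies between 0.90 and 0.93 on pregnant arrays and between -1.09 and -0.77 on non-pregnant arrays, while the catalytic median stays between -0.17 and 0.30.

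A further member of the family, Car15, was also higher in pregnancy. Car15 is an active enzyme in the mouse, held to the outside of the plasma membrane by a lipid anchor. It was not among the 10 genes and comes from a list of the 6 other carbonic anhydrases the platform names. Its signals were 6661, 6604 and 6540 on pregnant arrays, against 3105, 2498 and 2131 on non-pregnant arrays, without overlap. The mean was 6601 ± 60.6 in pregnant and 2578 ± 491.5 in non-pregnant islets (SD, n = 3 each), 2.56 times as high, for a log2 difference of 1.37 ± 0.11 (limma adjusted p = 9.4e-06). The rise of Car8 was thus accompanied by that of 1 enzyme with catalytic activity, which the comparison with Car2, Car3, Car4 and Car12 leaves out.

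The remaining carbonic anhydrases were dim. Car7, a cytosolic enzyme, was the other gene of that list to be tested, with 80.3, 106.3 and 136.5 on pregnant arrays, against 121.2, 135.5 and 165.9 on non-pregnant arrays (log2 difference -0.36 ± 0.24, limma adjusted p = 0.42). A dimmer tested Car7 probe set, 1452484_at, had 14.3, 52.2 and 69.8 on pregnant arrays, against 86.7, 99.5 and 64.9 on non-pregnant arrays. It overlapped too and did not pass (log2 difference -0.81 ± 0.40, limma adjusted p = 0.25). Car1, the other red cell enzyme, stayed within the TrpnX range on every array, at 3.7 to 16.1 on pregnant and 3.3 to 30.9 on non-pregnant arrays. The mitochondrial Car5a, the salivary enzyme Car6 and the hypoxia-induced Car9 had overlapping groups and signals of at most 95.5, which was Car9 on pregnant replicate 1, and were not tested. The list thus had 1 gene higher and 0 lower of 2 tested (limma, with 0 lower also at an unadjusted p under 0.05).

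The partner of Car8 known from brain, Itpr1, was not analysed here. Among the other IP3 receptors, Itpr3 had 430.5, 419.8 and 531.3 on pregnant arrays, against 608.2, 633.4 and 574.8 on non-pregnant arrays, without overlap (log2 difference -0.39 ± 0.12, limma adjusted p = 0.062, but 0.034 without pregnant replicate 3 and 0.047 with the top 40% filter). Itpr2 overlapped in its brightest probe set, with a log2 difference of -0.30 ± 0.16 (limma adjusted p = 0.28). In 2 dimmer Itpr2 probe sets every pregnant signal was below every non-pregnant one, with log2 differences of -0.40 ± 0.20 (1424834_s_at, limma adjusted p = 0.27) and -0.89 ± 0.38 (1427693_at, 0.18), and neither passed. Of 10 tested genes of IP3 receptors and calcium handling in the endoplasmic reticulum, 0 were higher and 2 lower in limma. At an unadjusted p under 0.05 in limma, 0 were higher and 3 lower, and the median log2 difference was -0.25. Counted by gene, with 1 probe set each, 6.1% of the 12914 genes tested were called higher and 5.79% lower, and the counts of this and the following lists stand beside these shares.

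Both genes called lower are calcium sensors of the endoplasmic reticulum that open plasma membrane channels when the store is low. Stim2 had 771.8, 1031 and 804.9 on pregnant arrays, against 1424, 1381 and 1281 on non-pregnant arrays (log2 difference -0.65 ± 0.11, limma adjusted p = 0.0030). Stim1 had 768.8, 827.8 and 603.8 on pregnant arrays, against 1001, 1069 and 1128 on non-pregnant arrays (-0.54 ± 0.12, limma adjusted p = 0.013). In neither did the groups overlap. Without the variance trend neither passed, at adjusted p-values of 0.068 for Stim2 and 0.11 for Stim1. The second, dimmer probe sets of Stim1 (1436945_x_at) and Stim2 (1441024_at) overlapped between the groups and did not pass.

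Of 7 tested genes that move bicarbonate or protons across membranes, 1 was called higher and 1 lower. At an unadjusted p under 0.05 in limma, 1 was higher and 2 lower, and the median log2 difference was -0.27. The count called higher was 0 without pregnant replicate 2, where another probe set stood for Slc26a3, and with the top 40% filter. The count called lower was 0 under the settings in which Slc4a10 lost its call. Slc26a3, a chloride and bicarbonate exchanger, had 207.9, 287.5 and 136.0 on pregnant arrays, against 9.4, 4.4 and 39.0 on non-pregnant arrays (2.83 ± 0.40), and 2 of the non-pregnant signals were within the TrpnX range. Its non-pregnant mean of 17.6 was below the signal that matches the filter. It was thus tested through its pregnant signals, and its call is not read as support. With a pseudocount of 1 its log2 difference was 3.95 and with 64 it was 1.74. Slc4a10, a sodium-driven bicarbonate transporter, had 552.6, 708.9 and 564.6 on pregnant arrays, against 809.4, 899.0 and 875.3 on non-pregnant arrays (-0.50 ± 0.11, limma adjusted p = 0.016). That call was lost without pregnant replicate 1 (adjusted p = 0.077) and pregnant replicate 3 (0.062), without non-pregnant replicates 2 (0.057) and 3 (0.050), with each array centred on its median (0.056), and without the variance trend (0.098).

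Acinar cell markers were called lower by limma in 14 of 16 genes tested and higher in 0 (median log2 difference -1.05). At an unadjusted p under 0.05 in limma, 15 were lower and 0 higher. Their summed signal was 113668 to 182379 on pregnant and 192612 to 357054 on non-pregnant arrays. Without pregnant replicate 1 the count called lower was 6, and it was 0 both without the variance trend and with robust eBayes. In islet tissue, fewer cells of a type and less RNA per cell cannot be told apart. Duct cell markers had 0 higher and 3 lower of 6 tested in limma (0 higher and 4 lower at an unadjusted p under 0.05). Their median log2 difference was -0.24. Their summed signal was 12548 to 13496 on pregnant and 14909 to 16514 on non-pregnant arrays. The duct chloride channel Cftr read 1.5 to 8.7 on pregnant and 3.0 to 36.8 on non-pregnant arrays, mostly within the TrpnX range, and was not tested. Krt19, a duct keratin, alone among the tested duct markers had a higher mean in pregnancy. Its signals were 67.2, 55.5 and 102.5 on pregnant arrays, against 37.0, 64.8 and 13.3 on non-pregnant arrays. They overlapped, with a log2 difference of 0.83 ± 0.41 (limma adjusted p = 0.26). With each array centred on its median, or without the variance trend, or without pregnant replicate 1, 0 duct markers were lower, and without pregnant replicate 2 or non-pregnant replicate 3 the count was 1.

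Red cell markers, which matter for Car1 and Car2, had 7 genes on the array and 1 tested. Hbb-b2, a beta globin gene, had 151.9, 129.2 and 182.5 on pregnant arrays, against 68.1, 103.9 and 52.8 on non-pregnant arrays (0.93 ± 0.26, limma adjusted p = 0.044). It did not pass without any 1 array except non-pregnant replicate 2 (adjusted p between 0.071 and 0.15), with no filter (0.12), without the variance trend (0.097) or with the replicate block (0.071). The summed signal of the list was 262.5 to 325.4 on pregnant and 151.5 to 227.9 on non-pregnant arrays. Adipocyte markers, which matter for Car3, had 0 of 2 tested genes called in either direction in limma and 0 at an unadjusted p under 0.05. Their defining gene Adipoq, adiponectin, read 4.4 to 31.8 on pregnant and 4.6 to 40.2 on non-pregnant arrays. Skeletal muscle markers had 0 of 3 called, with 1 lower at an unadjusted p under 0.05. Endothelial cells can carry Car4, and their markers had 0 higher and 2 lower of 12, with a median of -0.16. Without the variance trend 1 was lower, and at an unadjusted p under 0.05 in limma 0 were higher and 4 lower. Beta cell markers had 0 higher and 2 lower of 8, with 1 higher and 2 lower at an unadjusted p under 0.05. Their median was 0.04. With each array centred on its median or without the variance trend 0 were called lower, and without pregnant replicate 2 the count was 1. Of the other islet hormone cells, 0 of 7 markers were higher and 2 lower in limma. At an unadjusted p under 0.05, 0 were higher and 3 lower. With 1 array left out, 1 was called lower for 5 of the 6 arrays. With the remaining array left out, 3 were called lower. Stellate cell and fibroblast markers had 0 higher and 3 lower of 10 (0 higher and 5 lower at an unadjusted p under 0.05), with a median of -0.58. One of the 3, the collagen gene Col3a1, did not pass without the variance trend (adjusted p = 0.060), which left 2. Macrophage markers had 1 higher and 0 lower of 8 in limma (1 lower at an unadjusted p under 0.05). The part of these cells in the values of Car8 and the other members was not tested.

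The genes whose values over the 6 arrays lay nearest to those of Car8, by the root mean square difference of centred log2 values, were Dipk1a, Synpr, Cdc6, Tmem255a and Enox1. Their distances were 0.11, 0.15, 0.16, 0.17 and 0.18, and the median distance over the 12913 other genes was 0.94. Synpr, synaptoporin of synaptic vesicle membranes, averaged 3646 ± 180.2 in pregnant and 1246 ± 85.2 in non-pregnant islets (SD, n = 3 each). Cdc6, which loads the replicative helicase onto DNA, averaged 149.6 ± 14.6 in pregnant and 35.6 ± 8.41 in non-pregnant islets (SD, n = 3 each). That non-pregnant mean was below the signal of about 50.5 that matches the filter on mean log2 value. Cdc6 thus came among the tested genes through its pregnant signals, and nothing is read from its nearness to Car8. All 5 were higher in every pregnant array than in any non-pregnant one, which the way they were chosen brings about.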

How the data were processed

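Islet RNA from 6 arrays was compared, 3 from pregnant and 3 from non-pregnant mice, grouped by the labels. The authors deposited 1 intensity per probe set and array, a MAS5 signal per the submitters' processing notes. For the MAS5 version, its settings and a genome build, nothing is given in the sources used here, so no coordinates are printed. Of 45101 probe sets, 64 controls were left out. Values were taken as log2(signal + 16) without further normalization, since trimmed means agreed within 5%. The top 60% by mean log2 value, 27022 probe sets, were tested (a mean log2 value that matches a signal above about 50.5). The 2-sided test was by lmFit and trended eBayes of limma 3.58.1 (R 4.3.3, 4 residual degrees of freedom). The threshold was a Benjamini-Hochberg adjusted p of 0.05. At an unadjusted p under 0.05 there were 6190.

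Symbols came from the platform annotation, with 34958 probe sets under 1 symbol, 932 under several and 9211 unnamed. Gene order came from RefSeq (GRCm38.p6). A gene was represented by its brightest probe set. Suffixes _s and _x mark probe sets that can match several transcripts or cross-hybridise. Members and lists were chosen with earlier results of these data known. Named were all members, the other carbonic anhydrases, IP3 receptors, at most 4 called genes of each other list, and the 5 genes nearest to Car8. Lists of cell markers are given as counts, with few of those genes named, among them Iapp, Cftr, Krt19 and Adipoq, which were not called.

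On simulated data of this comparison, with 27022 probe sets, 26.8%, 67.0%, 94.8% and 99.8% of changes of 0.5, 1, 2 and 4 (log2) were recovered, and 5.01% of calls were false. Alternatives were pseudocounts of 1 and 64, quantile normalization, median centring, dropping the filter or narrowing it to the top 40%, robust eBayes, eBayes without the variance trend, weighted arrays, a replicate block, each array left out, and 1 mean value per gene. The number of arrays limits the precision. Figures were drawn with matplotlib 3.10.9.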

Additional observations from a re-analysis of the deposited data

How the results depend on the processing

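Over the 17 alternatives run, the log2 difference of Car8 was 1.70 (mean of its probe sets) to 1.89 (each array centred on its median), and 1.72 to 1.88 with any 1 array left out. Its excess over the catalytic members was 1.88 to 2.08 in 13 alternatives. It had no value with a top 40% filter, which left no catalytic gene. Probe set 1424958_at of Car8 did not pass with no filter, without the variance trend, or without any 1 array except non-pregnant replicate 3, so 2 or 3 member probe sets were called higher, and 0 lower in each of 16 alternatives. Car15 passed in all 16, at 1.24 to 1.51 (limma adjusted p between 1.0e-06 and 0.016). Over the whole table, 1294 were called higher and 1293 lower. After median centring of the arrays 583 were lower, so 71.0% of calls were higher, against 50.0%. Without the variance trend 393 were higher and 210 lower (65.2% higher). With any 1 array left out, 811 to 1271 were higher and 677 to 976 lower; the causes were not tested. With the replicate block Car8 had 1.81 and 1211 probe sets were higher and 1145 lower. The numbers are not shown to pair the arrays: deviations of same-numbered arrays correlated at -0.03, -0.07 and 0.03. Signals within the TrpnX range limit what can be said of Car5b, Car11, Car13 and Car14.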
